A study of Mus musculus with 6 samples.

Results

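The killing machinery of a cytotoxic T cell is stored in granules, and the 10 genes described here encode granule contents, granule membrane proteins and the serpins that hold granzymes in check. They were chosen by name as Gzma, Gzmb, Gzmc, Prf1, Nkg7, Srgn, Ctsw, Lamp1, Serpinb9 and Serpinb6b. These are 10 of the 55536 genes in the deposited table, and all 10 were among the 14318 genes with enough counts to be tested. The RNA came from OT-I T cells taken from the lymph nodes of mice, that is, T cells with 1 transgenic receptor that recognises ovalbumin, and their genotype is otherwise labelled wildtype. One group of 3 libraries was treated with the solvent DMSO for 2 h and the other group of 3 with disulfiram (DSF) for 2 h. Both groups were kept in serum-supplemented RPMI medium that contained 2-mercaptoethanol. The labels used here give no age, sex or number of mice, no DSF concentration and no stimulation of the cells.

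Granzymes are serine proteases that are packed into acidic granules together with perforin, on a scaffold of the proteoglycan serglycin. On contact with a target cell the granules fuse with the plasma membrane, perforin opens the way, and the granzymes enter the target and cleave its proteins. Granzymes that leak inside the T cell itself are trapped by intracellular serpins, which are sacrificed in an irreversible complex with the protease. Activated CD8 T cells are known for high granzyme B mRNA, while mast cells, natural killer cells and some myeloid cells share parts of the same set.

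Library totals were between 18082223 and 21893690 counts, so the floor of 3 counts stood between 0.137 and 0.166 CPM. Levels compared between libraries are CPM, counts as a share of the library total, scaled by TMM for library composition. Levels compared between genes are TPM, which also correct for gene length. In the CD8 T cell marker list all 6 of 6 genes were tested, and their summed level was 1834 to 1859 TPM in DMSO and 1696 to 1737 TPM in DSF. The 3 libraries of each group were called biological replicates by the labels, which do not tie them to different mice or cultures, so the p-values measure only the spread between these libraries.

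The 4 promoters that follow show the genes the results turn on: Gzmb, Gzmc and Serpinb9, which were lower in DSF, and Prf1, which did not pass the test. Each is the stretch from 200 bases before to 30 bases after the RefSeq start in GRCm38.p6, read 5′ to 3′ on the gene's strand. Gzmb is at chr14:56262305-56262534 and Gzmc at chr14:56234628-56234857, both on the minus strand. Prf1 is at chr10:61297636-61297865 and Serpinb9 at chr13:33004341-33004570, both on the plus strand. Capitals mark matches to the motifs searched.
Gzmb: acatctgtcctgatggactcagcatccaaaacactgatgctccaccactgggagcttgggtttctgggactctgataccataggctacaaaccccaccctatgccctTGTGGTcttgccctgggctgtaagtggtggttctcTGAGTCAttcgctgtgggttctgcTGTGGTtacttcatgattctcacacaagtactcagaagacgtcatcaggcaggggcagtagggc
Gzmc: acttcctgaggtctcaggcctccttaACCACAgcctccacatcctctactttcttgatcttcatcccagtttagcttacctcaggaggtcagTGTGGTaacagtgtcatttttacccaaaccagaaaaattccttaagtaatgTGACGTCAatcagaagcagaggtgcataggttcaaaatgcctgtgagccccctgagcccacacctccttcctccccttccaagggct
Prf1: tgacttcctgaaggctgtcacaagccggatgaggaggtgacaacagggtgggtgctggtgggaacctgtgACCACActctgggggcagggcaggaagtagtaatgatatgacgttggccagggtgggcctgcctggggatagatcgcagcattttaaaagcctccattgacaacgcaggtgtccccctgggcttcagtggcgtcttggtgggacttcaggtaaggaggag
Serpinb9: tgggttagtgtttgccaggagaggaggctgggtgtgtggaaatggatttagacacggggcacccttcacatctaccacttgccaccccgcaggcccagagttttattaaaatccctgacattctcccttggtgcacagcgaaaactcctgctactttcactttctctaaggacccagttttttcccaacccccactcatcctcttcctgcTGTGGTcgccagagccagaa
The search covered the whole RefSeq windows of 250 bases before to 50 after the start, on both strands, and 9 of the 10 members had at least 1 window. The RUNX core TGTGGT was found in 8 of these 9 members and in 8 of their 10 windows. Of 32851 mouse windows of the same length, 16.8% held it. For Srgn the match lay only in the window whose start is 19694 bases from its outermost GENCODE start. The Srgn window starting 6 bases from that point had no such match. Gzmb has the RUNX core at positions -93 to -88 and -34 to -29, Gzmc at -174 to -169 and -108 to -103, Prf1 at -130 to -125, and Serpinb9 at 11 to 16. The AP-1 motif TGANTCA was found in Gzmb alone among the members, at -58 to -52, and in 7.81% of all windows. The cyclic AMP response motif TGACGTCA was found in Gzmc alone, at -57 to -50, and in 1.79% of all windows. The T-box motif TCACACC was found in Nkg7 alone, against 3.98% of all windows. The STAT motif TTCNNNGAA was found in Gzmb, at 38 to 46 and so beyond the stretch shown, and in Nkg7, against 8.30% of all windows. No 2 matches overlapped in the members' windows, and a match is a description of the letters and not a bound site. The shared RUNX core was present both in genes that were lower in DSF and in Prf1, Nkg7 and Lamp1, which did not pass the test. The RefSeq start used here lies 74 bases from the outermost GENCODE start of Gzmb and 1291 bases from that of Serpinb9.

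The question of the comparison was how disulfiram changes T cell transcripts. After 2 h of DSF, 5 of the 10 granule genes were lower and 0 were higher (edgeR quasi-likelihood test, Benjamini-Hochberg adjusted p under 0.05 over all 14318 tested genes). The lower genes were the 3 granzymes Gzma, Gzmb and Gzmc, the granule protease Ctsw and the granzyme B inhibitor Serpinb9. Perforin, serglycin, Nkg7, Lamp1 and Serpinb6b did not pass the test. Across all tested genes 22.9% were called, 11.3% as lower and 11.6% as higher in DSF. The groups' libraries did not overlap in CPM in 5 of the 10 members, the same 5 genes, against 35.4% of all tested genes. In TPM the libraries of Gzmc overlapped, with DSF replicate 2 at 42.57 against DMSO replicate 2 at 42.44. The median log2 fold change of the 10 members was -0.14, and that of all tested genes was -0.00. In bulk RNA, fewer cells carrying a transcript and less of it per cell cannot be told apart.

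**Figure D1:**
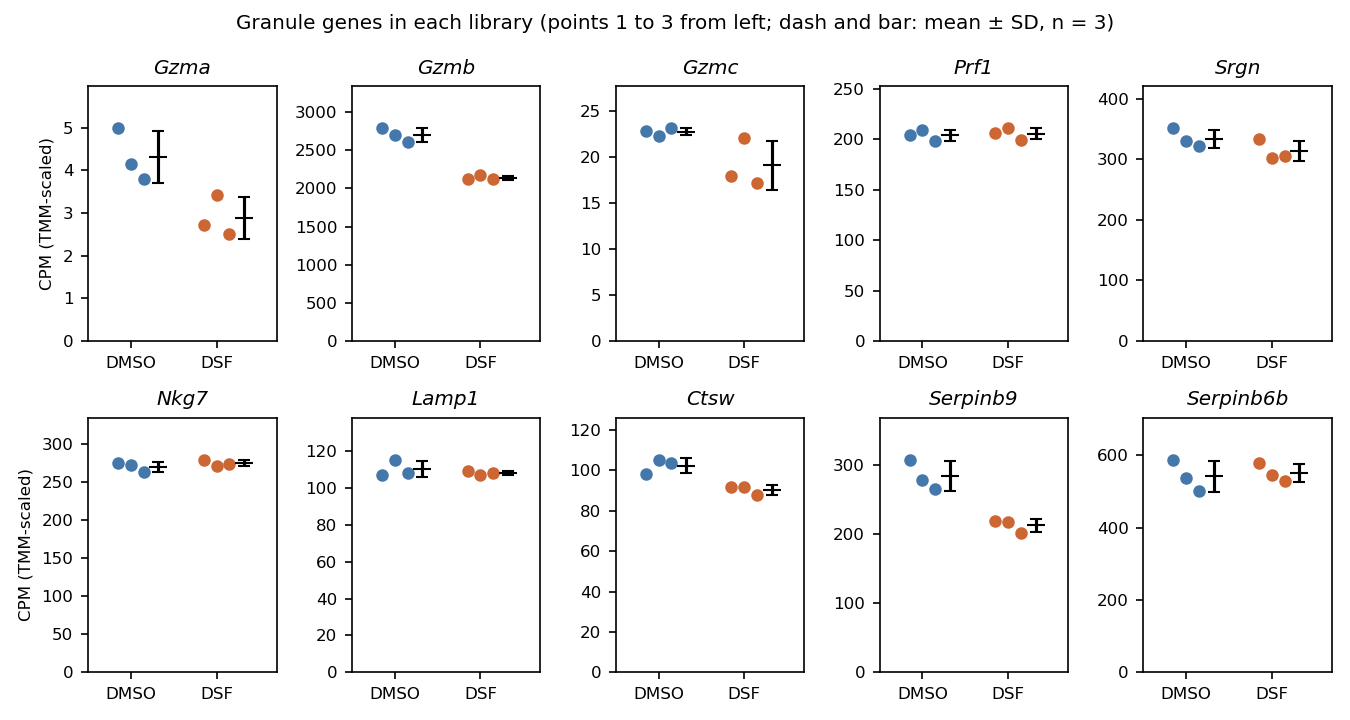
Level of each of the 10 granule genes in every library, as TMM-scaled CPM on each panel's own axis, with DMSO and DSF libraries as points and bars at the group mean ± SD (n = 3). The DSF libraries of Gzma, Gzmb, Gzmc, Ctsw and Serpinb9 sit below all DMSO libraries, and those of the other 5 genes overlap.

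Gzmb, on chromosome 14 (ENSMUSG00000015437, chr14:56258838-56262260, minus strand), encodes granzyme B, the protease that cleaves after aspartate and activates caspases in target cells. Its level was 2786, 2699.7 and 2609 CPM in the DMSO libraries and 2127, 2173 and 2127 CPM in the DSF libraries. Every DSF library was below every DMSO library, and the mean went from 2698 ± 88.2 to 2142 ± 26.5 CPM (SD, n = 3). Gzmb fell to 0.794 of its DMSO level (log2 fold change -0.33, SE 0.03, adjusted p = 5.1e-10). This rested on 38386 to 59348 counts per library, the deepest counts of the set.

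Gzma (ENSMUSG00000023132, chr13:113093825-113100981, minus strand) encodes granzyme A, a tryptase, and was by far the scarcest member. It had 92, 91 and 77 counts in DMSO and 49, 67 and 52 in DSF, which is 4.98, 4.14 and 3.81 CPM against 2.72, 3.43 and 2.50 CPM. The highest DSF library, replicate 2, came near the lowest DMSO library, replicate 3, without reaching it. Gzma fell to 0.670 of its DMSO level (log2 fold change -0.58, SE 0.18, 95% interval -0.94 to -0.22, adjusted p = 0.0160). The call was lost without DMSO replicate 1 (adjusted p = 0.0933), without DSF replicate 1 (0.0605) and without DSF replicate 3 (0.0958). It was also lost with DESeq2 (adjusted p = 0.104) and with limma on log2(TPM + 1) (0.0659).

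Gzmc (ENSMUSG00000079186, chr14:56231441-56234656, minus strand) encodes granzyme C and lies in the granzyme cluster of chromosome 14 with Gzmb. It stood at 22.9, 22.4 and 23.2 CPM in DMSO and at 18.01, 22.2 and 17.2 CPM in DSF. DSF replicate 2 was almost level with the DMSO libraries, while the other 2 DSF libraries lay well below them. Gzmc fell to 0.839 of its DMSO level (log2 fold change -0.25, SE 0.08, adjusted p = 0.0218). This call was lost without DMSO replicate 1 (adjusted p = 0.0511), DMSO replicate 3 (0.0717), DSF replicate 1 (0.115) or DSF replicate 3 (0.187). DESeq2 (adjusted p = 0.113) and limma on log2(TPM + 1) (0.163) did not call it. Of the 50-base windows of its exons, 4.14% also occur in Gzmd, Gzme or Gzmg, so a small part of its reads could be split among them.

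Prf1 (ENSMUSG00000037202, chr10:61297833-61304680, plus strand) encodes perforin, the pore-forming protein without which granzymes do not reach the target's cytosol. The DMSO libraries held 204, 209 and 199 CPM and the DSF libraries 207, 211 and 199.7 CPM. The groups overlapped throughout. The DSF level was 1.01 times the DMSO level, with a 95% interval of 0.958 to 1.06, and did not pass the test (adjusted p = 0.861). That interval lies above the interval of Gzmb, 0.760 to 0.830.

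Srgn (ENSMUSG00000020077, chr10:62493833-62527451, minus strand) encodes serglycin, the proteoglycan core that binds granzymes and perforin in the granule. It measured 351, 330.1 and 322 CPM in DMSO and 333, 302 and 306 CPM in DSF. DSF replicate 1 lay above 2 of the DMSO libraries. The DSF level was 0.938 of the DMSO level (95% interval 0.887 to 0.991), at an unadjusted edgeR p of 0.0242 and an adjusted p of 0.0898. Without DSF replicate 1 it was called as lower (adjusted p = 0.0189), as it was with a term for the replicate number in the edgeR fit (0.00689). In 12 of the 14 alternatives it did not pass.

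Nkg7 (ENSMUSG00000004612, chr7:43437073-43438249, plus strand) encodes a granule membrane protein needed for efficient degranulation. Its values were 275, 273 and 263 CPM in DMSO and 279, 272 and 274 CPM in DSF. Lamp1 (ENSMUSG00000031447, chr8:13159161-13175338, plus strand) encodes the lysosomal membrane protein CD107a, which appears on the cell surface when granules fuse. It stood at 107, 115 and 108 CPM in DMSO and at 109, 107 and 108 CPM in DSF. The libraries of the groups overlapped for both genes. The DSF level was 1.02 times the DMSO level for Nkg7 (95% interval 0.971 to 1.07) and 0.983 times for Lamp1 (0.924 to 1.04). Neither passed the test (adjusted p = 0.655 and 0.752). Lamp1 exons overlap Grtp1 on the opposite strand, which had 1.36 CPM in DMSO and 0.955 CPM in DSF, so it could have added little to the Lamp1 counts.

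Ctsw (ENSMUSG00000024910, chr19:5465043-5468507, minus strand) encodes cathepsin W, a cysteine protease found mainly in cytotoxic lymphocytes. Its DMSO libraries held 98.1, 105 and 103 CPM and its DSF libraries 91.8, 91.8 and 87.6 CPM. No library crossed between the groups. Ctsw fell to 0.884 of its DMSO level (log2 fold change -0.18, SE 0.05, adjusted p = 0.00371). It was not called by limma on log2(TPM + 1) (adjusted p = 0.0672). Its exons overlap Fibp on the opposite strand, which was at 21.96 CPM in DMSO and 21.68 CPM in DSF and did not pass the test (adjusted p = 0.889).

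Serpinb9 (ENSMUSG00000045827, chr13:33003250-33017957, plus strand) encodes the inhibitor of granzyme B that protects the T cell from its own protease. It was at 308, 279 and 265 CPM in DMSO and at 219, 219 and 203 CPM in DSF. The lowest DMSO library, replicate 3, was still above all DSF libraries. Serpinb9 fell to 0.751 of its DMSO level (log2 fold change -0.41, SE 0.05, adjusted p = 4.2e-06), from 284 ± 21.7 to 213 ± 9.34 CPM (SD, n = 3).

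Serpinb6b (ENSMUSG00000042842, chr13:32965209-32979067, plus strand) lies in the same serpin cluster of chromosome 13 and encodes an inhibitor of mouse granzyme A. It stood at 587, 537 and 500.4 CPM in DMSO and at 578, 545 and 528 CPM in DSF. The DMSO libraries spanned the whole range of the DSF libraries. The DSF level was 1.02 times the DMSO level (95% interval 0.931 to 1.11) and did not pass the test (adjusted p = 0.828). The 2 serpins thus had intervals that did not meet, 0.931 to 1.11 for Serpinb6b and 0.699 to 0.805 for Serpinb9. Shared 50-base windows with other serpins were 2.92% of Serpinb6b and 0.38% of Serpinb9.

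**Figure D2:**
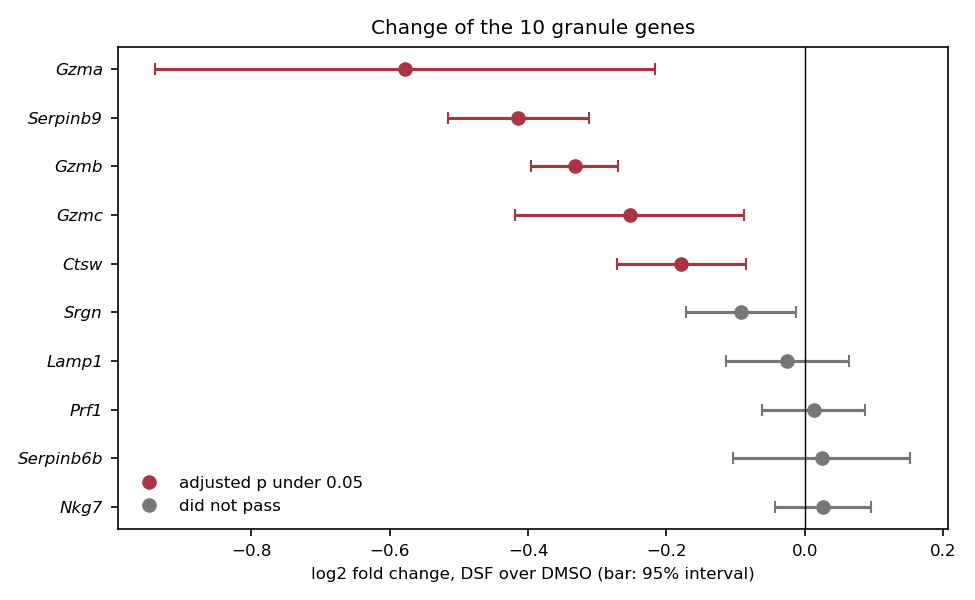
Log2 fold change in DSF against DMSO of each granule gene from edgeR, with its 95% interval and a line at 0. Serpinb9, Gzmb and Ctsw lie below 0 with narrow intervals, Gzma and Gzmc lie below 0 with wider ones, and the intervals of Prf1, Nkg7, Lamp1 and Serpinb6b cross 0.

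The authors' deposited table, which holds their own log2 fold changes for DF over DO, gave the same fold to 2 decimals for Gzma, Gzmb, Gzmc, Ctsw and Serpinb9. An adjusted p under 0.05 stood beside 3 of the 10 members in the authors' deposited table, namely Gzmb (1.64e-35), Serpinb9 (1.8e-15) and Ctsw (0.00656). Gzma (0.106) and Gzmc (0.116) did not pass in the authors' deposited table. The calls on Gzmb, Serpinb9 and Ctsw therefore stood in both fits, and those on Gzma and Gzmc in one of them.

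Length-corrected levels put the members in 1 order in both groups, from Gzmb through Srgn, Nkg7, Serpinb6b, Ctsw, Prf1, Serpinb9, Lamp1 and Gzmc to Gzma. Gzmb was at 2807 ± 44.9 TPM in DMSO and 2268 ± 28.9 TPM in DSF. Gzma, at the other end, was at 8.58 ± 1.10 and 5.81 ± 0.982 TPM. Between them, Srgn (609 ± 10.9 TPM) and Nkg7 (561.5 ± 6.51 TPM) were separate in DMSO, but overlapped in DSF at 579.6 ± 34.3 and 578 ± 6.55 TPM. Ctsw (115 ± 2.12 TPM) and Prf1 (114 ± 3.34 TPM) also overlapped in DSF, as did Serpinb9 (72.5 ± 3.11 TPM) and Lamp1 (68.7 ± 1.18 TPM). In DMSO the libraries of all neighbouring genes in the order were apart. The order of the means thus held, while the ranges of 3 pairs of neighbours overlapped across the DSF libraries. Within each DSF library Serpinb9 still lay above Lamp1, at 75.16, 73.38 and 69.1 against 70.1, 68.01 and 68.11 TPM. The order within the other pairs varied between DSF libraries.

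Gzmb ranked 67, 69 and 70 among all genes by TPM in the DMSO libraries and 85, 87 and 88 in the DSF libraries. The 10 genes together made up 0.497, 0.491 and 0.480% of all TPM in DMSO and 0.437, 0.430 and 0.423% in DSF. Gzmb alone held 57.9, 57.8 and 58.1% of the members' summed TPM in DMSO and 52.2, 54.0 and 53.5% in DSF. Without Gzmb, the other members summed to 2072, 2055 and 1994 TPM in DMSO and to 2069.95, 1962 and 1952 TPM in DSF. These sums overlapped, and the smaller share of the set in DSF followed mainly its most abundant member.

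Ratios within a library compare members with each other independently of scaling between libraries. Perforin and granzyme B work together, and Gzmb stood at 25.2 times Prf1 in DMSO and at 19.9 times in DSF on the TPM scale. The log2 ratio was 4.71, 4.62 and 4.64 in DMSO and 4.29, 4.30 and 4.34 in DSF, with no overlap. With 3 libraries against 3 the smallest two-sided p an exact permutation test can give is 0.10, and this ratio reached it (0.20 after Benjamini-Hochberg adjustment over the 6 ratios). The ratio of Srgn to Gzmb went from 0.217 to 0.255, a log2 difference of 0.23 with no overlap (exact permutation p = 0.1, adjusted 0.2). The ratio of Serpinb6b to Gzmb went from 0.147 to 0.187, a log2 difference of 0.34 with no overlap (exact permutation p = 0.1, adjusted 0.2). These 3 pairs joined a gene that fell to one that did not pass the test. The pairs were chosen with earlier results of these data known, so their p-values add no separate test of the single-gene results.

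The other 3 ratios joined genes that were all lower in DSF. Serpinb9 to Gzmb, the inhibitor against its target protease, was 0.0343 in DMSO and 0.0320 in DSF, a log2 difference of -0.10 (exact permutation p = 0.2, adjusted 0.3). Gzma to Gzmb differed by -0.26 on the log2 scale (exact permutation p = 0.3, adjusted 0.36) and Gzmc to Gzmb by 0.06 (exact permutation p = 0.8, adjusted 0.8). The libraries of the groups overlapped in all 3 ratios.

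**Figure D3:**
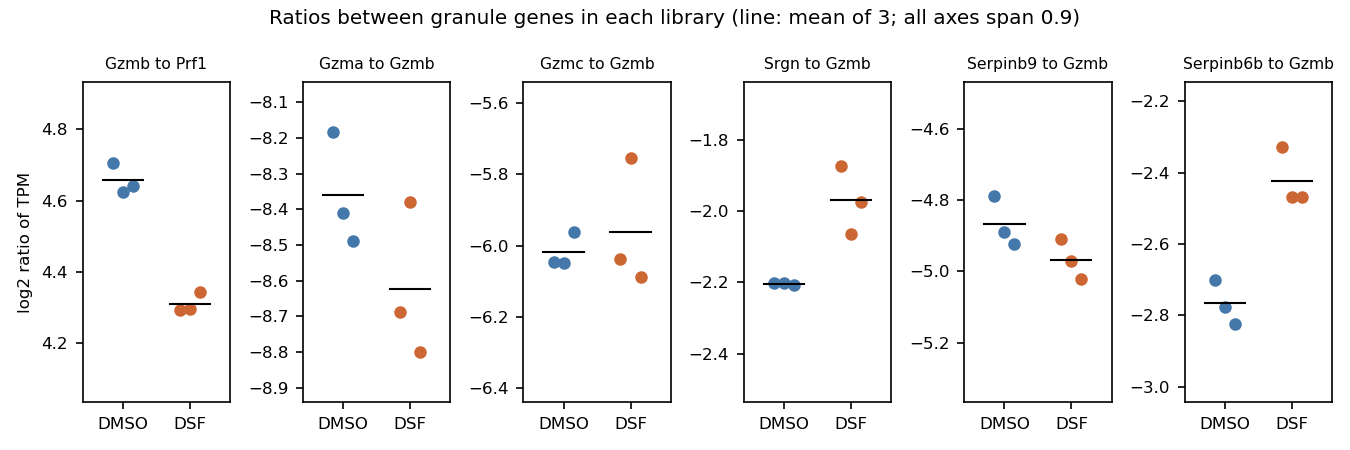
Log2 ratio of TPM between pairs of granule genes in each library, with group means as bars and the same axis span in every panel. Gzmb to Prf1 is lower in all DSF libraries and Srgn to Gzmb and Serpinb6b to Gzmb are higher in all of them, while the ratios among Gzma, Gzmc, Serpinb9 and Gzmb overlap.

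Genes that work beside the members were read from 8 wider lists. Their counts stand beside 11.3% lower and 11.6% higher among all tested genes. Of 7 other granzymes, 5 were tested and 0 were called, with a median log2 fold change of -0.20. Gzmd, of the same cluster as Gzmb, was the most abundant of them at 4.05 ± 0.572 CPM in DMSO and 3.50 ± 0.528 in DSF (adjusted p = 0.470). Gzmk had 0 to 5 counts per library and was not tested. Gzmg, named after its values were seen, had 46, 55 and 40 counts in DMSO and 28, 35 and 25 in DSF, or 2.32 ± 0.299 and 1.51 ± 0.297 CPM, with no overlap. Its DSF level was 0.651 of the DMSO level, at an unadjusted edgeR p of 0.0131 and an adjusted p of 0.0556 (0.045 to 0.240 over the alternatives). Gzmm went the other way, also with no overlap, at 1.61 ± 0.0619 CPM in DMSO and 2.12 ± 0.388 in DSF. Its DSF level was 1.31 times the DMSO level (edgeR adjusted p = 0.259). Gzme, at 0.859 of its DMSO level, and Gzmf, at 1.06 times, had overlapping libraries.

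Processing and sorting genes made up 2 of these lists. Of 11 cathepsins, related proteases and their inhibitors, 1 was lower and 10 did not pass the test (median log2 fold change -0.02). The lower gene was Ctsc, whose product cathepsin C removes the propeptide that keeps granzymes inactive. Ctsc was at 94.96 ± 3.59 CPM in DMSO and 79.6 ± 1.04 CPM in DSF, and fell to 0.839 of its DMSO level (adjusted p = 9.07e-05), the same fold as Gzmc. The inhibitor of cathepsin C, Cst7 (cystatin F), stood at 87.4 ± 1.00 CPM in DMSO and 87.9 ± 2.71 in DSF (adjusted p = 0.916). Ctsd was the most abundant gene of the list that did not pass, at 241 ± 4.91 and 232 ± 4.07 CPM (adjusted p = 0.258). Of 11 tested genes of the lysosome membrane and of mannose 6-phosphate sorting, 2 were lower, 0 were higher and 9 did not pass (median -0.03). Igf2r and M6pr, the 2 mannose 6-phosphate receptors that carry granzymes to the granule, were those 2 genes. Igf2r fell to 0.898 (adjusted p = 0.000676) and M6pr to 0.936 of its DMSO level (adjusted p = 0.0479). The M6pr call was kept in 3 of 14 alternatives. It was lost when any 1 of the 6 libraries was left out, with both other filters on low counts, and with limma-voom, limma on log2(TPM + 1) and DESeq2. Gnptab, whose enzyme adds the sorting tag, stood at 238 ± 2.27 CPM in DMSO and 228 ± 7.93 CPM in DSF (adjusted p = 0.194).

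Among 26 tested genes of granule maturation, docking and exocytosis, 2 were lower, 4 were higher and 20 did not pass (median 0.01). Of all tested genes 11.3% were lower and 11.6% were higher. Synaptotagmin-like proteins bind Rab27 and dock granules at the membrane, and 2 of them moved in opposite directions. Sytl2 was at 87.9, 84.2 and 85.6 CPM in DMSO and at 55.3, 56.0 and 54.5 CPM in DSF, a fall to 0.644 (adjusted p = 3.54e-12). Sytl3 was at 70.1, 62.3 and 59.4 CPM in DMSO and at 98.3, 87.6 and 92.0 CPM in DSF, a rise to 1.45 times (adjusted p = 3.08e-08). Neither gene had overlapping libraries, and the fold of Sytl2 was below that of every member, Gzma at 0.670 included. Kif5b, a kinesin that moves granules, rose to 1.12 times (adjusted p = 0.000459). Unc13d (Munc13-4), which primes granules for fusion, was at 97.0 ± 2.15 and 99.1 ± 7.38 CPM (adjusted p = 0.727). Rab27a was at 74.0 ± 3.02 and 70.9 ± 1.04 CPM (adjusted p = 0.424), and the actin regulator Coro1a at 899 ± 24.4 and 855 ± 28.4 CPM (adjusted p = 0.106). The other called genes, named after their values were seen, were Arl8b, at 0.917 of its DMSO level (adjusted p = 0.0312), Rab11a at 1.13 times (0.00727) and Rab11fip5 at 1.66 times (0.0154). The Arl8b call was lost without any 1 library except DMSO replicate 3, with no filter on low counts and with DESeq2, and its sign turned with limma on log2(TPM + 1). Rab11a was lost without DMSO replicate 2 (adjusted p = 0.0559) and with limma on log2(TPM + 1) (0.142). Rab11fip5 was lost without DMSO replicate 3, DSF replicate 2 or DSF replicate 3, with DESeq2 (adjusted p = 0.110) and with limma on log2(TPM + 1), where its log2 fold change was 0.15 (adjusted p = 0.509) against 0.73.

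Serglycin carries chondroitin sulfate chains. A list of proteoglycan chain synthesis, which also held Ext1 and Ext2 of heparan sulfate synthesis, had 16 tested genes. Of these, 3 were lower, 1 was higher and 12 did not pass (median -0.08). Chpf, a chondroitin polymerising factor, fell to 0.745 (adjusted p = 1.34e-05) and the synthase Chsy1 to 0.883 of its DMSO level (adjusted p = 0.00374). Csgalnact2, which starts the chondroitin chains, rose to 1.39 times (adjusted p = 5.94e-05). Chpf2, at 62.5 CPM in DMSO and 66.5 in DSF, did not pass (adjusted p = 0.242). Chst15, the remaining lower gene and named after its value was seen, stood at 0.634 (adjusted p = 0.0333), a call lost without DMSO replicate 2, DSF replicate 1 or DSF replicate 3, and with limma-voom, limma on log2(TPM + 1) and DESeq2.

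Of 6 tested further intracellular serpins 2 were lower and 4 did not pass (median -0.16). These were Serpina3g, an inhibitor of cathepsins in T cells, at 0.707 of its DMSO level (adjusted p = 7.53e-08), and Serpina3f at 0.746 (adjusted p = 0.000202). Serpinb6a was at 158 ± 4.69 and 160 ± 1.14 CPM (adjusted p = 0.761). Serpinb9b, a relative of Serpinb9, stood at 7.52 ± 1.84 CPM in DMSO and 5.92 ± 2.34 in DSF (adjusted p = 0.620).

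Killing does not run through granules alone, and death ligands and other effector molecules were read as a list of their own. Of 15 tested, 10 were lower, 1 was higher and 4 did not pass (median -0.20). The list also held surface receptors, and Klrk1, Klrd1, Cd226, Cd160, Cd244a and Slamf7 were among the 10 lower genes. Fasl, the ligand of the Fas death receptor, was at 84.7, 72.7 and 79.0 CPM in DMSO and at 62.6, 58.2 and 63.4 CPM in DSF. It fell to 0.780 (adjusted p = 6.25e-06), a fold near that of Gzmb. Tnfsf10 (TRAIL) fell to 0.723 (adjusted p = 3.9e-07) and Cd160, a receptor of activated cytotoxic cells, to 0.642 (adjusted p = 6.43e-08). Ltb, at 86.4 and 79.6 CPM, did not pass (adjusted p = 0.0784). The gene that rose was Fgl2, a soluble effector named after its value was seen, to 1.16 times (adjusted p = 0.00233).

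Of 18 transcription factors tied to the cytotoxic programme, 12 were lower, 1 was higher and 5 did not pass (median -0.22). T-bet (Tbx21), which drives Gzmb and Prf1 in effector cells, was at 63.2, 72.4 and 72.1 CPM in DMSO and at 50.6, 50.4 and 50.5 CPM in DSF. It fell to 0.729 (adjusted p = 6.17e-08), and its relative Eomes fell to 0.805 (adjusted p = 7.28e-05). Prdm1 (Blimp-1) fell to 0.566 (adjusted p = 2.83e-12) and Id2 to 0.663 of its DMSO level (adjusted p = 9.93e-12). Stat5b, at 136 and 139 CPM, did not pass (adjusted p = 0.714). Zeb2, named after its value was seen, rose to 1.22 times (adjusted p = 0.00165). The 12 lower factors also held Bach2 and Foxo1, which are known for memory and quiescence rather than for killing. The lists were chosen with earlier results of these data known. Their counts are a description beside the 11.3% of all tested genes that were lower and the 11.6% that were higher.

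**Figure D4:**
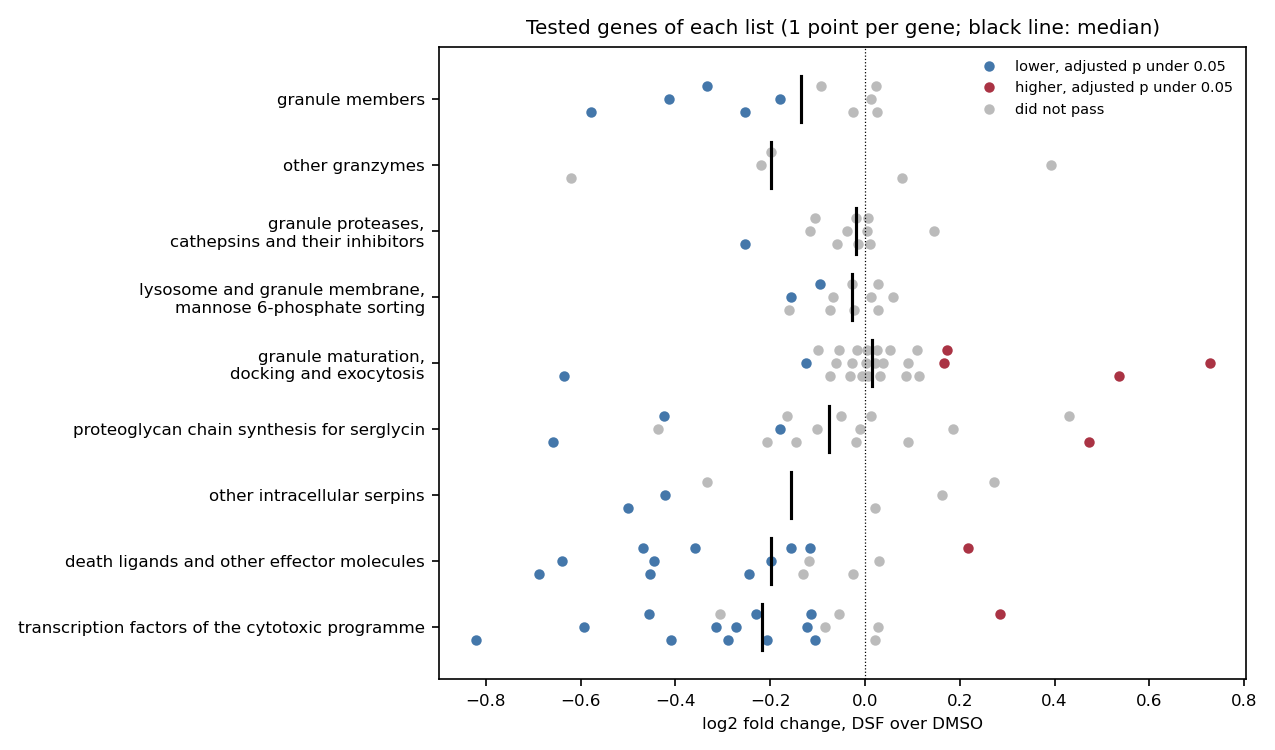
Log2 fold change in DSF against DMSO of every tested gene in the granule set and the 8 wider lists, 1 point per gene, blue for lower, red for higher and grey for genes that did not pass, with a black line at each list's median. The medians lie at -0.20 for death ligands and other effector molecules and at -0.22 for transcription factors. Those of exocytosis, lysosome membrane and cathepsins lie near 0.

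Other cells can supply granule transcripts, and their markers were read beside the members. Of 8 natural killer cell markers 4 were tested and 0 were called, with a summed level of 24.1 to 25.9 TPM in DMSO and 25.1 to 27.0 TPM in DSF. The defining marker Ncr1 had 0 to 4 counts per library, Klra8 0 to 1 and Klra4 0 to 2. The 4 tested markers were present in every library, Klre1 at 57 to 86 counts, Fcer1g at 62 to 76, Klrb1c at 55 to 69 and Tyrobp at 25 to 46. Of 8 mast cell and basophil markers 5 were tested and 0 were called (24.2 to 25.1 TPM and 21.8 to 27.7 TPM), and Mcpt4 and Tpsb2 were at 0 counts in all 6 libraries. Kit was at 903 to 1172 counts and Mcpt8 at 19 to 43. Cpa3 was at 64, 88 and 64 counts in DMSO and 52, 61 and 52 in DSF, or 3.54 and 2.83 CPM on average, lower in every DSF library without passing the test (adjusted p = 0.217). None of the 6 neutrophil markers was tested, and they summed to 1.19 to 3.42 TPM in DMSO and 0.730 to 1.66 TPM in DSF. The myeloid and dendritic list of 8 markers held 2 lower genes, Xcr1 at 0.506 (adjusted p = 2.75e-06) and the scarce Clec10a. The list summed to 263 to 281 TPM in DMSO and 245 to 276 TPM in DSF. Most of each sum was Cst3, at 230 ± 9.83 TPM in DMSO and 217 ± 17.3 TPM in DSF. Of 6 B cell markers 2 were lower, Ighm (adjusted p = 0.00801) and Igkc (adjusted p = 0.0458), with sums of 196.5 to 213 TPM and 187 to 197 TPM. The part of these cells in the fall of the granule genes was not tested. The calls on Clec10a and Ighm were each lost when at least 1 of the libraries was left out and with limma on log2(TPM + 1). The call on Igkc was lost when any 1 of 4 libraries was left out, with no filter on low counts, and with limma-voom and DESeq2.

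Markers of T cells were read in the same way. Of the 6 markers in the CD8 T cell list 3 were lower, beside 11.3% of all tested genes. These were Cd8a at 0.852 of its DMSO level (adjusted p = 1.2e-06), Cd3g at 0.911 (adjusted p = 0.00283) and Trac at 0.840 (adjusted p = 3.32e-05). Cd8b1 at 0.949, Cd3e at 0.950 and Cd3d at 0.947 did not pass the test (edgeR adjusted p = 0.136, 0.166 and 0.121). Of 4 tested CD4 T cell markers Zbtb7b was higher, at 1.21 times (adjusted p = 0.00308), and Cd4 itself had 23 to 36 counts per library. The CD4 list summed to 287 to 308 TPM in DMSO and 292 to 313 TPM in DSF. Most of each sum was Ctla4, at 277 ± 14.5 TPM in DMSO and 283 ± 10.6 TPM in DSF. These marker genes were named after their values were seen, and their relation to the fall of the granule genes was not tested. Gzmb at 0.794 and Serpinb9 at 0.751 were below the folds of all 6 markers in the CD8 T cell list, while Ctsw at 0.884 was not.

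The pattern of Gzmb over the 6 libraries was closely matched by many genes. Among 4427 genes of at least 50 mean CPM, Trim59 (Pearson r = 0.998), Trbc2 (0.998), Etv3 (0.998), Bzw2 (0.998) and Rrm1 (0.997) correlated most with it in log2 CPM. Their log2 fold changes were -0.42, -0.18, -0.21, -0.20 and -0.12. The correlation is a description over 6 libraries that fall into 2 groups, so any gene that was uniformly lower in DSF scores highly.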

How the data were processed

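Messenger RNA libraries were made from 3 DMSO and 3 DSF samples with a SMARTER kit from total RNA, per the labels' protocols. GRCm38 (mm10) is the build named in the submitters' processing notes. The aligner, the counter and the use of strand remain not given in the sources used here. Each gene and library has, as deposited by the authors, an estimated count (expected count) without normalisation, of which 12.1 to 12.9% are not whole. The same deposited table holds TPM per library, the authors' group means of TPM and a gene length in bases. The authors' own log2 fold changes stand there with their p-value and adjusted p-value columns, per the file headers.

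Columns are named A or B with a number, and no label says which treatment a letter stands for. In all 55536 genes the 3 A columns average to the authors' mean for DO, and the 3 B columns to that for DF. Reading DO as DMSO, DF as DSF and the number as the replicate gave the groups, so every direction rests on that reading. The number of unused columns per library was 0.

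Counts were rounded to whole numbers, because the design had assumed whole counts. Genes were filtered with filterByExpr, which removed 41218, and scaled by TMM. The robust quasi-likelihood test of edgeR 4.0.16 in R 4.3.3 was fitted with the group as the only term, two-sided, with Benjamini-Hochberg adjustment over 14318 genes and a threshold of 0.05. Intervals are 95% and, like the standard errors, approximate. Intervals and floors cover counting error only where they rest on a count. Replicate libraries differed by 2.22 to 4.28 times the chi-square of counting noise per degree of freedom, so none was a repeat deposit. Ratios were compared with an exact permutation test over the libraries (scipy 1.17.1). The script was tested on simulated data. Alternatives used limma 3.58.1 (voom, and trend on log2(TPM + 1)), DESeq2 1.42.0, other scalings and filters, a replicate block and leaving out each library.

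All 10 members were named. Of each wider list the text names up to 3 called genes with the smallest p, the most abundant gene that did not pass, and in any case Ctsc, Cst7, Unc13d, Rab27a, Gzmk, Serpinb6a, Serpinb9b, Fasl, Tbx21 and Eomes. Genes most like Gzmb were the 5 of at least 50 mean CPM with the highest Pearson correlation over the libraries. The members, lists and ratios were chosen with earlier results of these data known. Gene positions are from GENCODE M21, in which all 55536 identifiers were found, and promoters from RefSeq.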

Additional observations from a re-analysis of the deposited data

Results flagged for a closer look

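A further table of the authors compares a group coded DC, which the labels do not explain and of which no library was analysed here, with DF and with DO. For DC over DF, 3 of the 10 members had an adjusted p under 0.05 in the authors' deposited table, all higher in DC, and the report does not use that comparison. The authors' deposited table gives a log2 fold change of 0.24 for Gzmb (adjusted p = 1.49e-41), 0.15 for Ctsw (0.0212) and 0.34 for Serpinb9 (8.14e-19). These are the same 3 members that the authors' deposited table has as lower in DF against DO, and both comparisons share the DF libraries. For DC over DO, 0 of the 10 members had an adjusted p under 0.05 in the authors' deposited table, with log2 fold changes of -0.08 for Gzmb, -0.07 for Serpinb9 and -0.02 for Ctsw.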

How the results depend on the processing

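The 5 lower members stayed 5 under library totals, upper quartile scaling, both other filters and limma-voom, and numbered 3 with DESeq2, 2 with limma on log2(TPM + 1) and 3 to 5 when 1 library was left out. No member was higher in any of the 14 alternatives. Gzmb (log2 fold change -0.35 to -0.31) and Serpinb9 (-0.46 to -0.35) kept their calls in all 14. Genes called in all were 1348 with limma on log2(TPM + 1), 2336 with DESeq2 and 2565 to 2982 with 1 library left out. Whether the replicate numbers pair the libraries was not settled. Every library correlated best with its own number, though weakly, at 0.0458, 0.0349 and 0.0547 for same-numbered deviations. Differently numbered ones ran from -0.0521 to 0.0039. With the replicate block 3828 genes and 6 members were called, Srgn being added (adjusted p = 0.00689).

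Values near 0 changed sign. The difference between DSF and DMSO in the log2 ratio of Gzmc to Gzmb ran from -0.044 to 0.12 with 1 library left out. With 1 library left out, log2 fold changes ran from -0.045 to 0.0079 for Lamp1 (highest without DMSO replicate 2), from -0.0032 to 0.035 for Prf1 (-0.0021 without DMSO replicate 3), and from -0.026 to 0.084 for Serpinb6b (-0.0090 without DSF replicate 1). They ran from -0.021 to 0.088 for Unc13d and from -0.0097 to 0.036 for Cst7 (-0.00052 without DMSO replicate 2). With limma on log2(TPM + 1) the values were 0.0025 for Lamp1, -0.0042 for Unc13d, 0.079 for Serpinb9b and 0.034 for Arl8b, and among the list and marker genes Igf2r, M6pr, Kif5b, Rab11a, Rab11fip5, Chsy1, Chst15, Serpina3f, Zeb2, Fgl2, Zbtb7b, Cd3g, Trac, Ighm and Clec10a also lost their calls. DESeq2 ended those of M6pr, Chst15, Igkc, Arl8b and Rab11fip5, and limma-voom those of M6pr, Chst15 and Igkc. With the replicate block Gzmg (adjusted p = 0.045), Ltb (0.0329) and Coro1a (0.0232) gained one. Each also passed outside the block. Gzmg did not pass in 11 of the 14 alternatives, and Ltb and Coro1a each in 12 of the 14. The cause was not tested. Alternatives for genes of the wider lists were added after seeing the data. Gzma had the fewest counts of the members, 49 to 92 per library.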
